A study of Mus musculus with 10 samples.

Results

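The 32 genes described here encode the machinery of transmission by GABA and glycine and 3 markers of the interneurons that use GABA. They were chosen by name from 19938 genes measured on arrays of whole mouse brain. They comprise 14 subunits of the GABA-A receptor (5 alpha, 2 beta, 5 of the gamma, delta, theta and epsilon kinds and 2 rho), 2 subunits of the GABA-B receptor, 3 enzymes of GABA synthesis and breakdown, 3 GABA transporters, 4 glycine receptor subunits, the scaffold gene Gphn, 2 glycine transporters and the interneuron markers Pvalb, Sst and Vip. Each was read from a probeset with 1 symbol, and none of these probesets was shared with another gene. Gabrb2 alone had several probesets, and the brightest was taken.

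GABA is the main inhibitory transmitter of the forebrain and cerebellum, and glycine takes much of that role in the brainstem and spinal cord. GABA is made from glutamate in inhibitory neurons and loaded into vesicles by the carrier that also loads glycine. After release it opens GABA-A receptors, which are chloride channels of 5 subunits, or acts on GABA-B receptors, which signal through G proteins. It is then taken up by transporters of neurons and astrocytes and broken down by a transaminase. Glycine receptors are chloride channels of the same superfamily, and gephyrin, the product of Gphn, anchors glycine receptors and many GABA-A receptors at synapses.

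RNA came from the perfused brains of female C57BL/6 mice aged 6 to 8 weeks, with 1 array per mouse. The 5 Aldara-treated mice received 80 mg of Aldara cream, which holds 5% imiquimod, a synthetic ligand of Toll-like receptors, on shaved dorsal skin every 24 h for 5 applications. The 5 control mice received aqueous control cream on the same schedule, so the groups differed in the cream vehicle as well as in imiquimod, and brains were taken 24 h after the last application. Values are log2 expression after RMA, which gives the probes of all arrays a common distribution before they are summarised per probeset, and a difference of 1 on this scale is a doubling. Array medians over the probesets tested were 8.10 to 8.14 in control mice and 8.16 to 8.19 in Aldara-treated mice, and arrays of different groups correlated at 0.980 to 0.988 across probesets, against at least 0.995 within groups. The 14 pan-neuronal markers measured had a mean log2 value of 11.44 to 11.61 on every array. The labels call the mice of a group biological replicates. No call of detection above background was used here.

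Many genes of GABA transmission were slightly lower in Aldara-treated mice. In the main comparison none of the 6 genes of glycine receptors and glycine transporters passed the test in either direction. In some alternative settings Slc6a5 passed as higher, and Slc6a9 and Glrb passed as lower. The difference between both sets was not tested. Of the 32 genes, 17 were lower, 0 were higher and 15 did not pass at an adjusted p under 0.05 from limma. Over all 19938 genes, 22.4% were lower and 11.8% were higher at the same threshold. The median log2 difference was -0.13 over the 32 genes and -0.046 over all genes. The changes were small, since of the 17 Slc6a11 fell by 31.8%, the most, and Gphn fell by 5.03%, the least. For 15 of the 32 genes, all of them among the 17, the highest Aldara-treated mouse lay below the lowest control mouse. This held for 16.4% of all genes, called or not. For none of the 32 was the order the other way, which held for 9.93% of all genes.

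**Figure D1:**
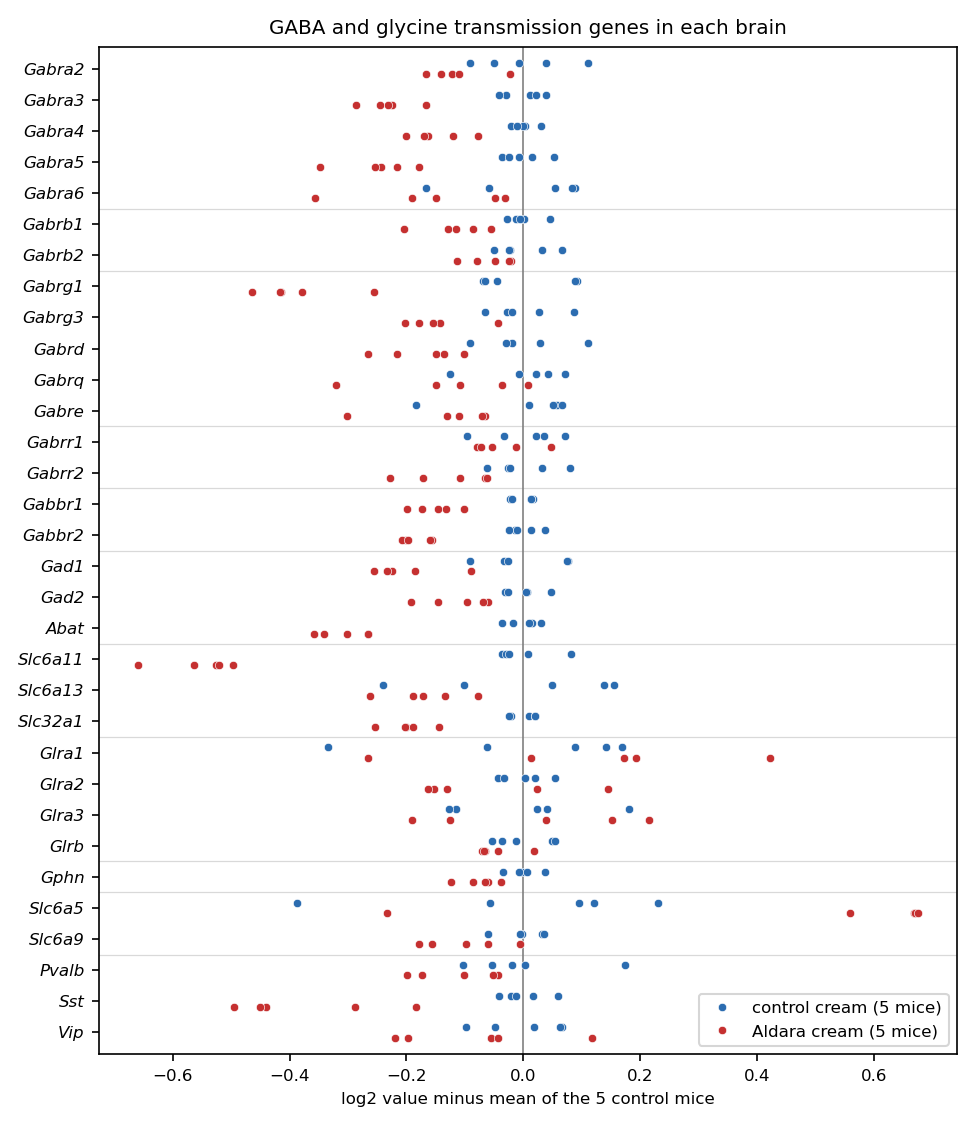
Log2 value of each of the 32 genes on each array, minus the mean of the 5 control mice, for control mice (blue) and Aldara-treated mice (red), with grey lines between roles. For Slc6a11, Abat, Gabrg1 and Sst the red points lie left of all blue points, and Slc6a5 has 4 red points far to the right and 1, Aldara replicate 3, among the blue ones.

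The mean log2 values of the 32 genes had a median percentile of 94.4 among all genes, and genes with high values were lower more often. Among the 3210 genes with a mean log2 value of at least 10, 39.7% were lower, and 13 of the 19 genes of GABA and glycine transmission at that level were lower (68.4%). Groups did not overlap, with Aldara lower, for 11 of these 19 and for 36% of the 3210. Of the pan-neuronal markers 10 of 14 were lower (71.4%) and 0 higher, with a median log2 difference of -0.098. All 12 leukocyte markers measured were higher, and their mean log2 value on the Aldara arrays exceeded the control mean by 1.83 to 2.08. Fewer cells of a type and less RNA per cell cannot be told apart in whole-brain RNA, and the part of the added leukocyte RNA in the lower values was not tested.

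The number of lower genes depended on how the arrays were scaled. When each array was centred to share 1 median, there were 26 lower genes of the 32 (43.4% of all genes lower and 9.51% higher). Setting the median difference of all probesets to 0 gave 12 lower and 1 higher (12.6% of all genes lower and 15.4% higher), and quantile normalisation gave 19 lower (26.7% and 11.9%). Centring each array on the pan-neuronal markers, a setting chosen after seeing the data, moved the median difference of all genes to 0.068 and left 6 lower and 1 higher (3.68% and 31% of all genes). The 6 were Slc6a11, Gabrg1, Sst, Abat, Gabra5 and Gabra3, and these passed as lower in all 23 alternative settings that were run.

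**Figure D2:**
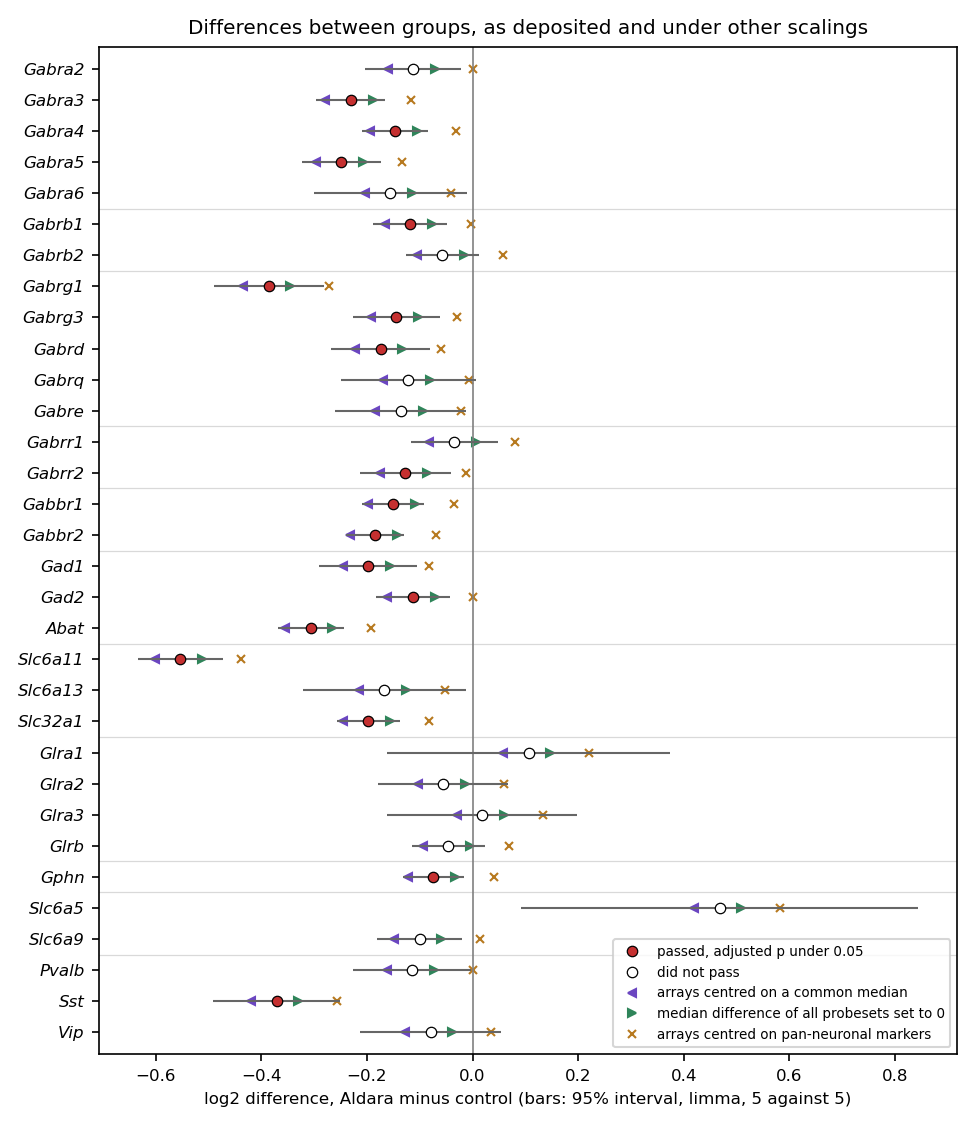
Log2 difference between Aldara-treated and control mice for each gene, with 95% intervals from limma (5 against 5 mice); filled circles passed the test. Triangles and crosses give the same difference under other scalings. The crosses (arrays centred on pan-neuronal markers) lie to the right of the circles throughout, and are most negative for Slc6a11, Gabrg1, Sst and Abat.

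Among the genes that make, load, clear and degrade GABA, 5 of 6 were lower. The largest fall of all 32 genes was that of Slc6a11, which encodes the GABA transporter found mainly on astrocytes. Its log2 values were 11.85, 11.86, 11.90, 11.86 and 11.97 in control replicates 1 to 5 and 11.23, 11.39, 11.32, 11.36 and 11.37 in Aldara replicates 1 to 5. No values overlapped, and Slc6a11 fell by 31.8% (log2 difference -0.55, standard error 0.037, adjusted p = 3.6e-07). Abat, the mitochondrial transaminase that degrades GABA, had log2 values of 11.98, 11.96, 12.01, 12.01 and 12.03 in control mice and 11.70, 11.73, 11.66, 11.64 and 11.73 in Aldara-treated mice. It fell by 19.1% without overlap between groups (log2 difference -0.31, standard error 0.029, adjusted p = 7.0e-06).
Gad1 and Gad2 encode the glutamate decarboxylases that make GABA. For Gad1 the log2 values were 11.50, 11.56, 11.67, 11.57 and 11.67 in control mice and 11.37, 11.36, 11.41, 11.34 and 11.51 in Aldara-treated mice. The call was lower (log2 difference -0.20, standard error 0.043, adjusted p = 0.0036), although Aldara replicate 5 lay just above control replicate 1. For Gad2 they were 11.44, 11.41, 11.44, 11.41 and 11.48 against 11.38, 11.29, 11.34, 11.24 and 11.37, a smaller difference without overlap (log2 difference -0.11, standard error 0.032, adjusted p = 0.017). Slc32a1, the vesicular carrier for GABA and glycine, had log2 values of 9.11, 9.14, 9.15, 9.11 and 9.15 in control mice and 8.93, 8.88, 8.93, 8.94 and 8.99 in Aldara-treated mice. All Aldara values lay below all control values (log2 difference -0.20, standard error 0.027, adjusted p = 1.8e-04). Slc6a13, a GABA transporter of the meninges and other barrier cells, ranged from 8.70 to 9.09 in control mice and from 8.67 to 8.86 in Aldara-treated mice and did not pass (log2 difference -0.17, standard error 0.071, adjusted p = 0.092).

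Of the 14 GABA-A receptor subunits, 8 were lower, 0 were higher and all 14 differences were negative. The median difference over all genes was negative too, at -0.046. With the arrays centred on pan-neuronal markers the differences of Gabra2, Gabrb2 and Gabrr1 turned positive. Among the alpha subunits, which shape the kinetics and drug binding of the receptor, Gabra5 and Gabra3 fell the most. Gabra5, a subunit of extrasynaptic receptors in the hippocampus, had log2 values of 11.20, 11.29, 11.21, 11.23 and 11.25 in control mice and 11.02, 10.99, 11.06, 10.98 and 10.89 in Aldara-treated mice. The groups did not overlap (log2 difference -0.25, standard error 0.034, adjusted p = 1.8e-04). Gabra3 had log2 values of 11.71, 11.75, 11.70, 11.78 and 11.76 in control mice and 11.45, 11.51, 11.57, 11.49 and 11.51 in Aldara-treated mice, again without overlap (log2 difference -0.23, standard error 0.030, adjusted p = 1.0e-04). Gabra4, a partner of the delta subunit in thalamus and dentate gyrus, had 11.30, 11.27, 11.30, 11.33 and 11.29 against 11.09, 11.18, 11.13, 11.13 and 11.22. Gabra4 fell by 9.67% without overlap (log2 difference -0.15, standard error 0.029, adjusted p = 0.0021). Gabra2 (log2 difference -0.11, standard error 0.041, adjusted p = 0.055) and the granule cell subunit gene Gabra6 (log2 difference -0.16, standard error 0.067, adjusted p = 0.095) did not pass.
Of the gamma, delta and beta subunits, Gabrg1, Gabrg3, Gabrd and Gabrb1 were lower. Gabrg1, a gamma subunit gene of some neurons and glia, had log2 values of 9.54, 9.57, 9.71, 9.55 and 9.70 in control mice and 9.15, 9.20, 9.20, 9.23 and 9.36 in Aldara-treated mice. It fell by 23.5%, the largest fall among receptor subunits (log2 difference -0.39, standard error 0.048, adjusted p = 7.4e-05). Gabrg3 had 10.51, 10.47, 10.52, 10.57 and 10.63 against 10.36, 10.40, 10.50, 10.34 and 10.39, with Aldara replicate 3 inside the control range (log2 difference -0.14, standard error 0.038, adjusted p = 0.012). Gabrd, the delta subunit of receptors outside synapses, had 9.91, 9.71, 9.83, 9.79 and 9.78 against 9.65, 9.70, 9.59, 9.54 and 9.67. The groups did not overlap (log2 difference -0.17, standard error 0.043, adjusted p = 0.0082). Gabrb1 had 11.33, 11.35, 11.34, 11.32 and 11.39 against 11.23, 11.26, 11.22, 11.14 and 11.29, and fell by 7.86% without overlap (log2 difference -0.12, standard error 0.032, adjusted p = 0.013). Gabrb2 did not pass by its brightest probeset (log2 difference -0.057, standard error 0.031, adjusted p = 0.19), whereas its other probesets, at -0.082 (standard error 0.024, adjusted p = 0.020) and -0.083 (standard error 0.029, adjusted p = 0.048), did.
Of the rarer subunits 1 passed. Gabrr2, a rho subunit best known from retina, had log2 values of 7.21, 7.10, 7.07, 7.16 and 7.10 in control mice and 7.06, 7.02, 7.07, 6.96 and 6.90 in Aldara-treated mice. The ranges touched at 2 decimals but did not overlap, with a call (log2 difference -0.13, standard error 0.040, adjusted p = 0.028) that was lost on omitting control replicate 1, control replicate 4, Aldara replicate 4 or Aldara replicate 5, at adjusted p of up to 0.070. Gabrr1 (log2 difference -0.034, standard error 0.038, adjusted p = 0.52), Gabrq (log2 difference -0.12, standard error 0.059, adjusted p = 0.13) and Gabre (log2 difference -0.14, standard error 0.057, adjusted p = 0.088) did not pass. In the RefSeq table of the GRCm38.p6 assembly, many of these genes lie in clusters of neighbours, with Gabrg1, Gabra2, Gabra4 and Gabrb1 in a cluster, Gabra5 with Gabrg3, Gabra6 with Gabrb2, and Gabre, Gabra3 and Gabrq on the X chromosome. Differences within a cluster ran from -0.11 for Gabra2 to -0.39 for Gabrg1 and from -0.12 for Gabrq to -0.23 for Gabra3.

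Both subunits of the GABA-B receptor, which work only as a pair, were lower. Gabbr1, which binds GABA, had log2 values of 12.23, 12.19, 12.19, 12.23 and 12.23 in control mice and 12.08, 12.11, 12.07, 12.04 and 12.01 in Aldara-treated mice. Gabbr2, which couples to the G protein, had 12.17, 12.16, 12.17, 12.20 and 12.22 against 11.98, 12.03, 12.02, 11.98 and 11.99. Neither gene overlapped between groups. Gabbr1 fell by 9.91% (log2 difference -0.15, standard error 0.027, adjusted p = 0.0011) and Gabbr2 fell by 12.0% (log2 difference -0.18, standard error 0.025, adjusted p = 1.7e-04). Gphn, which encodes gephyrin, had 11.08, 11.08, 11.12, 11.05 and 11.09 in control mice and 11.03, 11.05, 10.96, 11.02 and 11.00 in Aldara-treated mice. Gphn fell by 5.03%, barely past the threshold (log2 difference -0.075, standard error 0.027, adjusted p = 0.049), and the ranges met at 2 decimals without overlap. That call was lost in 15 of 23 alternative settings, among them the centring on pan-neuronal markers, where the difference was 0.040, the omission of any control replicate but 4 and of Aldara replicate 1, 3, 4 or 5, with adjusted p of up to 0.11 when 1 array was omitted.

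Of the 6 genes particular to glycine transmission, none passed at an adjusted p under 0.05 from limma in the main comparison. At an unadjusted p under 0.05 there were Slc6a5 and Slc6a9. Slc6a5, the transporter that refills glycinergic nerve endings and marks glycinergic neurons of brainstem and spinal cord, had the largest positive difference of the 32 genes. Its values in each array are given because they were seen to stand apart. The log2 values were 9.44, 9.16, 8.83, 9.33 and 9.31 in control mice and 9.88, 9.88, 8.98, 9.77 and 9.89 in Aldara-treated mice. Aldara replicates 1, 2, 4 and 5 lay above all control mice, whereas Aldara replicate 3 lay within the control range. The log2 difference was 0.47 (standard error 0.17, 95% interval 0.092 to 0.84) and missed the threshold (adjusted p = 0.055). Without Aldara replicate 3 it was 0.64 (adjusted p = 9.0e-04), without control replicate 3 it was 0.37 (adjusted p = 0.125), and without both, a setting chosen after seeing the data, it was 0.55 (adjusted p = 1.4e-04). It also passed with the median difference set to 0 and in 5 other settings.
Glra1, the adult alpha subunit of the glycine receptor in brainstem and spinal cord, had log2 values of 9.66, 9.43, 9.16, 9.64 and 9.58 in control mice and 9.67, 9.69, 9.23, 9.51 and 9.91 in Aldara-treated mice. The groups overlapped (log2 difference 0.11, standard error 0.12, adjusted p = 0.54), and replicate 3 was lowest in both groups for Glra1 as for Slc6a5. Glrb, the beta subunit that binds gephyrin, had 11.98, 11.99, 11.88, 11.92 and 11.90 against 11.89, 11.87, 11.86, 11.87 and 11.95. It overlapped between groups (log2 difference -0.046, standard error 0.031, adjusted p = 0.29). Glrb passed as lower only when the arrays shared 1 median (log2 difference -0.094, adjusted p = 0.035 from limma). There 43.4% of all genes were lower. Glra2 (log2 difference -0.056, standard error 0.056, adjusted p = 0.48) and Glra3 (log2 difference 0.018, standard error 0.083, adjusted p = 0.89) did not pass either. Slc6a9, the glycine transporter found mainly on astrocytes, had 11.36, 11.30, 11.35, 11.39 and 11.39 against 11.26, 11.35, 11.20, 11.30 and 11.18. The difference was negative and missed the threshold (log2 difference -0.10, standard error 0.037, adjusted p = 0.055). Slc6a9 passed as lower in 6 of the 23 alternative settings. Among them were arrays that shared 1 median (log2 difference -0.15, adjusted p = 0.0091 from limma). With the arrays centred on pan-neuronal markers its difference was 0.014.
HOX genes, which mark hindbrain and spinal cord, were read beside these genes. Of 15 HOX genes measured, 0 were higher and 0 lower with the deposited scaling, and 1 was lower with quantile normalisation. When the arrays shared 1 median, 5 of the 15 were lower, against 43.4% of all genes, and with the arrays centred on pan-neuronal markers 5 of the 15 were higher, against 31% of all genes. Their mean log2 value was 6.55, 6.47, 6.46, 6.62 and 6.49 in control mice and 6.54, 6.54, 6.47, 6.45 and 6.48 in Aldara-treated mice. Replicate 3 was at the low end among controls, and Aldara replicate 4, high for Slc6a5, was the lowest of all. These means lay below the array medians of 8.10 to 8.19, and the single HOX genes stood at percentiles 10.5 to 44.2 among all genes. Whether they lay above background was not tested, which limits what their lack of calls and their order can show. The relation of these values to those of Slc6a5 was not tested.

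**Figure D3:**
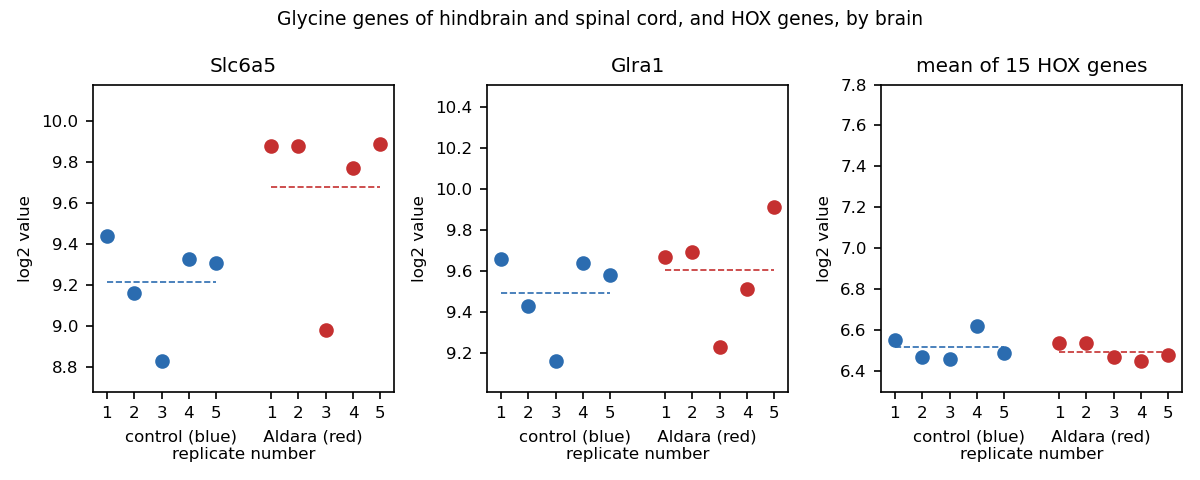
Log2 values of Slc6a5, Glra1 and the mean of 15 HOX genes on each control (blue) and Aldara (red) array, with dashed lines at group means; each panel spans the same range of log2 units. Slc6a5 is at 9.77 to 9.89 in 4 Aldara brains and at 8.98 in Aldara replicate 3. The HOX mean lies between 6.45 and 6.62, below the array medians of 8.10 to 8.19.

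Of the interneuron markers, Sst was lower and Pvalb and Vip did not pass. Sst encodes somatostatin, the peptide of a large class of dendrite-targeting interneurons. Its log2 values were 12.28, 12.25, 12.28, 12.31 and 12.36 in control mice and 11.80, 11.86, 12.11, 12.01 and 11.85 in Aldara-treated mice. The groups did not overlap, and the spread among Aldara-treated mice was wider, with SDs of 0.040 in control and 0.13 in Aldara-treated mice (n = 5 each). Sst fell by 22.7% (log2 difference -0.37, standard error 0.055, adjusted p = 2.9e-04). Pvalb, the calcium-binding protein of fast-spiking interneurons, ranged from 10.79 to 11.07 in control and from 10.70 to 10.85 in Aldara-treated mice (log2 difference -0.11, standard error 0.051, adjusted p = 0.11). Vip, the peptide of interneurons that inhibit other interneurons, ranged from 8.09 to 8.26 and from 7.97 to 8.31 (log2 difference -0.079, standard error 0.061, adjusted p = 0.35).

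The promoters of the 3 genes with the largest falls among those with a promoter sequence are given below so that the motifs each holds can be read beside its values. They are RefSeq sequences of build GRCm38.p6, from 250 bases before to 50 after the annotated start, and capitals mark matches to 4 motifs searched on both strands, the cAMP response element (TGACGTCA), the GC box (GGGCGG), the CCAAT box (CCAAT) and the TATA box (TATAAA). Slc6a11 is at chr6:114130991-114131290 on the plus strand, Gabrg1 at chr5:70842568-70842867 on the minus strand and Sst at chr16:23890795-23891094 on the minus strand.
Slc6a11 promoter: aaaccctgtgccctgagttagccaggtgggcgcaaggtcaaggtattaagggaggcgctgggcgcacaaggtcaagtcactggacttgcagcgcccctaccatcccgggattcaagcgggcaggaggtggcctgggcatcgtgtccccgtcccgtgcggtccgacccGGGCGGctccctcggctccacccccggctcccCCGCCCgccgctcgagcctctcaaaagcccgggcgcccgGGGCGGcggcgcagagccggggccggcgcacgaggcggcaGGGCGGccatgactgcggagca
Gabrg1 promoter: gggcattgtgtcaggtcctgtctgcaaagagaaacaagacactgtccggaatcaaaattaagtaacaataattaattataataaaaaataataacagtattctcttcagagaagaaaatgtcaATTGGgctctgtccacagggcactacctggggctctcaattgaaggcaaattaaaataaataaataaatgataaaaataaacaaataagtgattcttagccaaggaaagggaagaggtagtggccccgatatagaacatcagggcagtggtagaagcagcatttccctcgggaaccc
Sst promoter: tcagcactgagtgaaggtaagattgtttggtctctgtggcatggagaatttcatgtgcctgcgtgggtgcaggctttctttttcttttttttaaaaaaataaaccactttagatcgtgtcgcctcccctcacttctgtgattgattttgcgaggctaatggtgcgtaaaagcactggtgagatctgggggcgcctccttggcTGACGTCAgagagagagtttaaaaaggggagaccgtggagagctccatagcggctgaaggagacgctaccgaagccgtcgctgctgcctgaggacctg
Slc6a11 held 4 GC boxes, which began at -83, -51, -12 and 29 from the start, Gabrg1 held 1 CCAAT box on the opposite strand at -127, and Sst held 1 full cAMP response element at -48, the element through which this gene is known to respond to CREB. Sst was the only gene of the 29 with a promoter sequence that held this element, which was present in 1.79% of all 32851 promoters. GC boxes were present in 17 of the 39 promoters of these genes and in 35.7% of all promoters, CCAAT boxes in 14 and 37.4%, and TATA boxes in 6 and 13.6%. Gabrd, Abat and Glra1 were not matched. A match is a run of letters and not evidence of binding.

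Related genes were also compared within each array, which removes any scaling that acts on a whole array alike. For 13 pairs, picked after the values were seen, the log2 value of the second gene was subtracted from that of the first, and the groups were set against each other by exact permutation, two-sided, over 252 relabelings, adjusted over the 13 pairs. The smallest p that 5 mice against 5 allow is 0.0079. Standard errors and intervals of the pairs come from the pooled spread within groups and the t distribution, without adjustment. An interval and its adjusted p can therefore disagree. The adjustment does not cover the choice of pairs by their values, and several pairs share a gene, among them those of Gabrg1. These p-values therefore describe the pairs and are not independent tests. In 6 pairs the adjusted p was under 0.05. Slc6a11 fell relative to Slc6a13, with a difference between groups of -0.39 (standard error 0.078, adjusted p = 0.021, exact permutation test). Gabrg1 fell relative to each of its neighbours Gabra2, Gabra4 and Gabrb1, by -0.27 (standard error 0.043), -0.24 (standard error 0.046) and -0.27 (standard error 0.046), each at adjusted p = 0.021 by the exact permutation test.
Sst fell relative to Vip, at -0.29 (standard error 0.10, adjusted p = 0.021, exact permutation test), whereas against Pvalb the difference of -0.26 (standard error 0.096, adjusted p = 0.057, exact permutation test) missed the threshold. Slc6a5 rose relative to Glra1. The within-array differences were -0.22, -0.27, -0.33, -0.30 and -0.27 in control mice and 0.22, 0.20, -0.25, 0.27 and -0.03 in Aldara-treated mice. Aldara replicate 3 lay within the control range and the other Aldara-treated mice lay above it. The groups differed by 0.36 (95% interval 0.13 to 0.59, adjusted p = 0.034, exact permutation test). Omitting control replicate 2, 3, 4 or 5 raised the adjusted p of this pair to 0.052 to 0.062 and that of Sst and Vip to 0.064 to 0.077.
The other pairs did not pass, which does not show that their genes moved alike. Each p that follows is from the exact permutation test. Gad1 minus Gad2 differed between groups by -0.084 (95% interval -0.17 to -0.00019, adjusted p = 0.072) and Gabbr1 minus Gabbr2 by 0.034 (95% interval -0.0023 to 0.070, adjusted p = 0.084). Gabra5 minus Gabrg3 differed by -0.10 (95% interval -0.20 to -0.0051, adjusted p = 0.057) and Slc6a5 minus Slc6a9 by 0.57 (95% interval 0.12 to 1.02, adjusted p = 0.057). For Gabra6 minus Gabrb2 the difference was -0.098 (95% interval -0.26 to 0.062, adjusted p = 0.23) and for Pvalb minus Vip -0.035 (95% interval -0.26 to 0.19, adjusted p = 0.72).

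**Figure D4:**
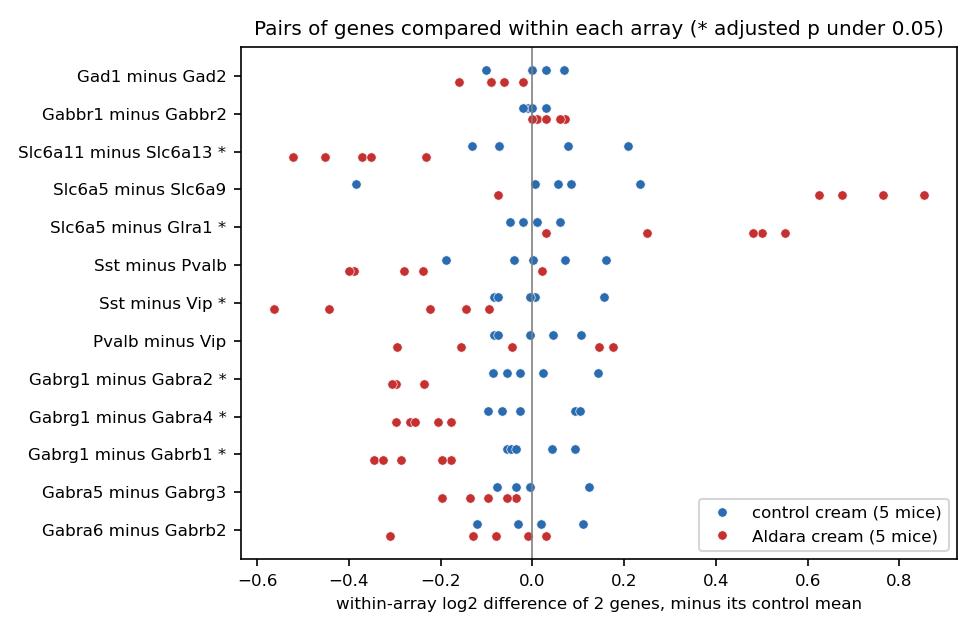
Within-array log2 difference between the genes of each of 13 pairs, minus its mean in control mice, for 5 control (blue) and 5 Aldara-treated mice (red). Asterisks mark an adjusted p under 0.05 by the exact permutation test. The pairs were picked after the values were seen, which the adjustment does not cover. Gabrg1 lies lower against each of its 3 neighbours in all Aldara-treated mice, and Slc6a5 lies higher against Glra1.

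Further genes supply, support and receive GABA and glycine signals, and their counts stand beside 22.4% lower and 11.8% higher over all genes with the deposited scaling. With the arrays centred on pan-neuronal markers, where 3.68% of all genes were lower and 31% higher, the list of GABA supply had 5 of 10 higher and 2 lower, that of glycine metabolism 4 of 10 higher and 2 lower, and that of the chloride gradient 2 of 9 higher and 1 lower. In the list of glutamine, glutamate and GABA shunt supply, 5 of 10 measured genes were lower and 1 was higher. Aldh5a1, which takes the product of Abat into the citric acid cycle, had a log2 difference of -0.45 (standard error 0.039, adjusted p = 3.7e-06), and Glul, the glutamine synthetase of astrocytes, one of -0.26 (standard error 0.030, adjusted p = 5.1e-05). In the list of glycine synthesis and cleavage, 3 of 10 were lower and 1 was higher, shares near those over all genes. Gldc, the decarboxylase of the glycine cleavage system, fell the most in that list (log2 difference -0.51, standard error 0.028, adjusted p = 6.5e-08), followed by Slc7a10, a carrier of glycine and small neutral amino acids (log2 difference -0.26, standard error 0.045, adjusted p = 9.0e-04), while Shmt2, the mitochondrial enzyme that makes glycine from serine, was higher (log2 difference 0.21, standard error 0.041, adjusted p = 0.0020).
Of 9 carriers and regulators of the chloride gradient, 3 were lower (33.3%) and 2 higher (22.2%). Slc12a5, the neuronal chloride extruder that makes GABA inhibitory, fell (log2 difference -0.21, standard error 0.027, adjusted p = 1.2e-04), while the kinase gene Wnk1 (log2 difference 0.21, standard error 0.031, adjusted p = 2.8e-04) and Slc12a7 (log2 difference 0.25, standard error 0.040, adjusted p = 5.8e-04) rose. Of 17 genes of inhibitory synapse assembly and receptor traffic, 11 were lower and 1 was higher. With the arrays centred on pan-neuronal markers 4 were lower and 2 higher, against 3.68% and 31% of all genes. The differences that follow are those of the deposited scaling. Dlg4, which is in that list although it is best known as a scaffold of excitatory synapses, fell (log2 difference -0.30, standard error 0.035, adjusted p = 5.1e-05), as did Igsf9b (log2 difference -0.25, standard error 0.033, adjusted p = 1.4e-04) and Iqsec3 (log2 difference -0.23, standard error 0.034, adjusted p = 2.7e-04), both at inhibitory synapses, and Gabarap, a receptor-binding and autophagy protein, rose (log2 difference 0.19, standard error 0.024, adjusted p = 1.1e-04).
Of 12 partners and effectors of the GABA-B receptor, 7 were lower and 1 was higher, and 2 were lower and 2 higher with the arrays centred on pan-neuronal markers. Kctd16, an auxiliary subunit of that receptor, fell (log2 difference -0.34, standard error 0.047, adjusted p = 2.0e-04), as did the potassium channel genes Kcnj9 (log2 difference -0.24, standard error 0.035, adjusted p = 2.4e-04) and Kcnj6 (log2 difference -0.16, standard error 0.025, adjusted p = 4.9e-04), which it opens. Gnai2, a G protein subunit that leukocytes also express, rose (log2 difference 0.40, standard error 0.028, adjusted p = 6.3e-07).

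Of 17 transcription factors and signalling genes of interneurons, 11 were lower and 1 was higher. Erbb4, the neuregulin receptor of interneurons, fell (log2 difference -0.27, standard error 0.028, adjusted p = 1.5e-05). So did Dlx2 (log2 difference -0.37, standard error 0.064, adjusted p = 7.9e-04) and Sp8 (log2 difference -0.22, standard error 0.038, adjusted p = 9.5e-04), transcription factors of young interneurons. Sp8 was also among the olfactory bulb markers. Maf, which macrophages also express, rose (log2 difference 0.36, standard error 0.040, adjusted p = 3.0e-05). The 5 that did not pass included Lhx6 (log2 difference -0.075, adjusted p = 0.30 from limma), Nr2f2 (-0.046, adjusted p = 0.50 from limma) and Sox6 (-0.0046, adjusted p = 0.92 from limma). Of 14 interneuron peptides and calcium-binding proteins, 8 were lower, 0 higher and 6 did not pass. Penk was at -0.27 (standard error 0.029), Reln at -0.20 (standard error 0.033), Cck at -0.21 (standard error 0.039) and Npy at -0.17 (standard error 0.038). Crhbp (log2 difference 0.14, adjusted p = 0.11 from limma) and Tac1 (log2 difference 0.013, adjusted p = 0.86 from limma) had positive differences. Whole-brain RNA does not show whether interneurons or other cells gave these values. Excitatory neuron markers were lower as well, in 6 of 11 measured genes, with a median log2 difference of -0.13. With the arrays centred on pan-neuronal markers, where 3.68% of all genes were lower and 31% higher, 1 interneuron peptide gene was lower and 1 higher, 3 interneuron transcription factor and signalling genes were lower and 2 higher, and 0 excitatory neuron markers were lower and 2 higher.

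**Figure D5:**
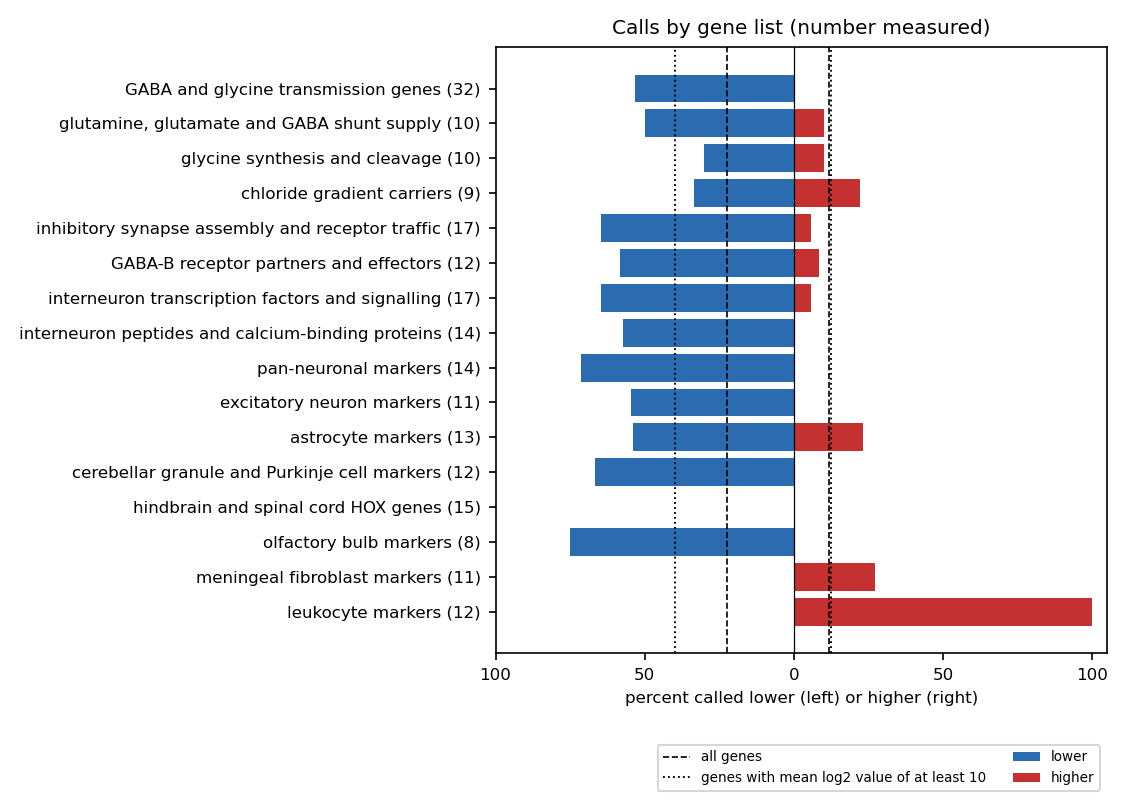
Percent of the measured genes of each list that were lower (blue, left) or higher (red, right) in Aldara-treated mice, with the 32 genes of GABA and glycine transmission on top; dashed lines give all genes and dotted lines genes with a mean log2 value of at least 10. The 32 genes (53.1% lower) lie beside neuronal lists of 54.5% to 71.4%, HOX genes have no call with the deposited scaling, and all 12 leukocyte markers were higher.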

How the data were processed

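RNA from whole brains of 10 mice was hybridised to Affymetrix GeneChip mouse gene arrays. In GeneSpring GX the authors applied RMA, and the deposited values are log2 expression values, 1 per probeset and array. Software versions: not given in the sources used here. Depth does not apply to arrays, and their number limits the precision.
Of 28856 probesets, the 23410 with at least 1 symbol in the platform annotation were tested, and genes were read from the brightest of their 1-symbol probesets (19938 genes). All 32 members matched a RefSeq gene by Entrez identifier. Groups were compared with limma 3.58.1 in R 4.3.3 (lmFit and eBayes, no covariate), with Benjamini-Hochberg adjustment over all probesets tested. The comparison was tested on simulated data with independent noise for each probeset. It recovered 92% of 50 probesets lowered to a fold of 0.8 and 100% of 50 raised to a fold of 3. There were 12 false calls among 204 calls. Smaller falls, which most of the 17 lower genes had, and shifts of whole arrays were not simulated. Alternatives were other scalings, probeset filters and summaries, an intensity trend, array weights, the methods' own test, the replicate number as a block and the omission of each array.
The members and lists were chosen with earlier results of these data known. Of the 194 genes of 15 further lists, 183 were measured. All members that passed are given in every array, with the member of smallest p of each role, and up to 4 genes of each further list by smallest p. Slc6a5 and Glra1 were added after their values were seen. No source used here gives a batch or a scan date.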

Additional observations from a re-analysis of the deposited data

Results flagged for a closer look

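In 3 of 64 groups of 5 arrays (32 genes in 2 groups), a mouse lay far from the rest of its group by Dixon's criterion, which chance meets in about 1 group in 20, or 3.2 of 64. For Slc6a5, Aldara replicate 3 had a log2 value of 8.98, and the nearest other Aldara-treated mouse had 9.77. For Gabre, an epsilon subunit gene with low values, control replicate 4 had 6.95 against at least 7.14 in the other control mice, and Aldara replicate 4 had 6.83 against at least 7.00 in the other Aldara-treated mice.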

How the results depend on the processing

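The count of 17 lower genes ranged from 15 to 18 when 1 array was omitted and was 26 with arrays brought to 1 shared median and 6 with arrays centred on pan-neuronal markers, a setting chosen after seeing the data. The median log2 difference of the 32 genes, -0.13, was -0.12 to -0.14 with 1 array omitted, -0.18 with arrays brought to 1 shared median, -0.090 with the median difference set to 0 and -0.017 with arrays centred on pan-neuronal markers. The count of 0 higher genes became 1, Slc6a5, with the median difference set to 0, with only 1-symbol probesets tested, with only the brighter probesets, with the replicate block, with the mean of a gene's probesets, with arrays centred on pan-neuronal markers and without replicate 3 of both groups, and it was 0 to 1 with 1 array omitted. Directions turned only for genes that did not pass or for Gad2 and Gphn. With arrays centred on pan-neuronal markers, the log2 difference became 0.0017 for Gabra2, 0.057 for Gabrb2, 0.080 for Gabrr1, 0.0014 for Gad2, 0.059 for Glra2, 0.068 for Glrb, 0.040 for Gphn, 0.014 for Slc6a9, 0.00013 for Pvalb and 0.035 for Vip, and with the median difference set to 0 it was 0.0068 for Gabrr1. For Glra3 it was -0.030 with arrays brought to 1 shared median, -0.019 with quantile normalisation, -0.031 to 0.070 with 1 array omitted and -0.048 without replicate 3 of both groups (also chosen after seeing the data). For Pvalb minus Vip it was 0.0011 with quantile normalisation and -0.087 to 0.030 with 1 array omitted. The cause of these changes was not tested. Whether the replicate numbers pair the mice could not be settled. Same-numbered arrays correlated at 0.18, 0.25, 0.038, -0.11 and 0.073 for replicates 1 to 5 in their deviations from the group means. The best other array reached 0.13, 0.17, 0.21, 0.17 and 0.10, so the same number was closer for replicates 1 and 2 only. With the replicate block 18 of the 32 genes were lower and 1 was higher, with Slc6a5 at an adjusted p of 0.0022. The methods' test, after Benjamini-Hochberg adjustment, gave 17 lower and 0 higher.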

Other observations

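Markers of brain regions and of other cells moved unevenly beside the genes above. Of 8 olfactory bulb markers measured, 6 were lower and 0 higher, with a median log2 difference of -0.30, the lowest of the 15 lists, and 5 were lower with the arrays centred on pan-neuronal markers, against 3.68% of all genes. Among the lower ones were Pcbp3 (log2 difference -0.32, standard error 0.055, adjusted p = 9.0e-04) and Th (log2 difference -0.37, standard error 0.077, adjusted p = 0.0030), the enzyme of dopamine synthesis, and Synpr (log2 difference -0.27, standard error 0.051, adjusted p = 0.0014). Eomes (log2 difference 0.15, standard error 0.13, adjusted p = 0.40 from limma) and Tbx21 (log2 difference -0.051, standard error 0.064, adjusted p = 0.58 from limma) did not pass. The mean of this list spread widely among control mice, from -0.20 to 0.20 around their own mean, and lay at -0.29 to -0.25 in Aldara-treated mice. Of 12 cerebellar markers 8 were lower, and 3 were lower and 1 higher with the arrays centred on pan-neuronal markers. With the deposited scaling the falls were led by Itpka, a kinase gene that forebrain neurons express too (log2 difference -0.36, standard error 0.031, adjusted p = 3.8e-06), and Fat2 of granule cells (log2 difference -0.32, standard error 0.047, adjusted p = 2.7e-04).
Astrocyte markers split, with 7 of 13 lower and 3 higher, and with 3 lower and 4 higher when the arrays were centred on pan-neuronal markers. Gfap, the filament gene of reactive astrocytes, rose (log2 difference 1.73, standard error 0.040, adjusted p = 3.6e-11), as did Aqp4 (log2 difference 0.36, standard error 0.030, adjusted p = 3.0e-06), while Slc1a2, the main glutamate transporter (log2 difference -0.57, standard error 0.036, adjusted p = 2.1e-07), and Ntsr2 (log2 difference -0.74, standard error 0.054, adjusted p = 8.7e-07) fell. The fall of Slc6a11, also an astrocyte transporter gene, was close to that of Slc1a2 in size, but other such genes differed less. Slc1a3 and Slc4a4 of the same list had log2 differences of -0.25 and -0.16, and Slc6a9, at -0.10, did not pass. Of 11 meningeal fibroblast markers 3 were higher, Dcn (log2 difference 0.86, standard error 0.064, adjusted p = 1.1e-06), Lum (log2 difference 0.46, standard error 0.060, adjusted p = 1.1e-04) and Aldh1a2 (log2 difference 0.40, standard error 0.11, adjusted p = 0.017), and 0 were lower, with 3 of 11 lower when the arrays shared 1 median, against 43.4% of all genes, and 1 lower with quantile normalisation, against 26.7%.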
